A study of Drosophila melanogaster with 2 samples.

Results

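The genes described here encode subunits of Mediator, the TBP-associated factors (TAFs) of TFIID, and the general transcription factors TFIIA, TFIIB, TFIIE, TFIIF and TFIIS. They were chosen by symbol from the Ensembl annotation of Drosophila melanogaster: all protein-coding genes whose symbol starts with MED or Taf and a digit, or with TfIIA, TfIIB, TfIIE, TfIIF or TfIIS. This gave 49 of 13945 protein-coding genes on 6 chromosome arms: 25 Mediator genes, 15 TAF genes and 9 general factor genes. Binding of tx (taxi, or delilah), a transcription factor of the basic helix-loop-helix family known in flies from tendon cells and the wing, was measured by chromatin immunoprecipitation and sequencing (ChIP-seq). The study's 1 group comprised 2 biological replicates of whole embryos from the transgenic strain tx-GFP, collected at 0 to 24 h, with both sexes mixed. The flies stably express a tx-eGFP fusion, with the tag at the C-terminus of tx, and an antibody against GFP was used. No control group was analysed here, so no comparison between conditions was possible and no test was made. In chromatin pooled from whole embryos, binding in few cells and weak binding in many cells cannot be told apart.

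As background, RNA polymerase II starts transcription from a preinitiation complex on the core promoter. TFIID, made of the TATA-binding protein and the TAFs, recognises the promoter, TFIIA and TFIIB stabilise the TATA-binding protein on DNA and place the polymerase, and TFIIF and TFIIE join with the polymerase and TFIIH. Mediator bridges activators on enhancers and this complex, and is built of head, middle and tail modules around the scaffold subunit MED14. TFIIS acts later, helping an arrested polymerase to resume. Most of these proteins are needed in nearly every dividing cell, while a few, such as Taf12L, are testis paralogs.

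A gene was taken as bound when a peak of the authors' optimal set, selected by the irreproducible discovery rate (IDR), had its summit within 1000 bp of a transcription start site (TSS) of the gene. By this rule 16 of the 49 genes were bound (32.7%), against 18.9% of all protein-coding genes. When each summit was given only to the gene with the nearest TSS, it was 9 of 49 (18.4%), against 13.2% of all, and 4 of 25 Mediator genes. The bound genes were 9 of 25 Mediator genes (36%), 4 of 15 TAF genes (26.7%) and 3 of 9 general factor genes (33.3%). A further 27 genes had only a weaker summit, in the relaxed list of the pooled replicates, and 6 had none there. In all, 43 of the 49 genes (87.8%) had some pooled summit at the promoter, against 62.9% of all genes. The optimal set is the top 3102 of the 30000 pooled peaks, ranked by the authors' signal value, with 1 as the strongest rank. That signal ran from 58.5 to 1473 in the set, with a median of 91.2, and its scale is not given, so values of different lists were not compared by size.

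The bases around the summit, 50 on either side, are printed for the 2 strongest bound peaks of each group, to show the DNA under them. MED27 and MED4 were added after their values were seen, because their windows hold an E-box. Sequences are on the strand of the named gene, 5′ to 3′, from the Release 6 genome in dm6 coordinates. Capitals mark matches to CANNTG, the E-box that basic helix-loop-helix proteins bind, or to CGATA, on either strand.
MED30 (chr3L:654232-654332, minus strand): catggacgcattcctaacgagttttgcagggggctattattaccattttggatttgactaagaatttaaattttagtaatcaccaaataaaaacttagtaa
MED15 (chr2L:472415-472515, plus strand): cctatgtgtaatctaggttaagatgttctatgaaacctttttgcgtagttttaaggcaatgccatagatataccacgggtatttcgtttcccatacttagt
MED27 (chr3R:5654947-5655047, plus strand): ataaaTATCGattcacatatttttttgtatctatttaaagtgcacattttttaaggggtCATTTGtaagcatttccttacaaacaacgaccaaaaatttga
MED4 (chr3L:7250601-7250701, minus strand): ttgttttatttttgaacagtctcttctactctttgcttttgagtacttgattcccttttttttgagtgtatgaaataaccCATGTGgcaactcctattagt
Taf4 (chr3L:16113662-16113762, plus strand): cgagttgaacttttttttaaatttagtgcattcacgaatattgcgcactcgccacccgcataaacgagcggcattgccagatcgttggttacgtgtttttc
Taf7 (chr3R:7907470-7907570, plus strand): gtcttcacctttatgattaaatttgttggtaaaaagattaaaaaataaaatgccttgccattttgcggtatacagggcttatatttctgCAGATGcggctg
TfIIA-S (chr3R:23891074-23891174, minus strand): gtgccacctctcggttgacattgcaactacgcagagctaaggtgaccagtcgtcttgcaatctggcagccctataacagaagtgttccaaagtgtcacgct
TfIIA-L (chr3R:27253175-27253275, plus strand): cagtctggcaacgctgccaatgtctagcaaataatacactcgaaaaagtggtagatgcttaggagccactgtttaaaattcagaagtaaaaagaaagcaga
The windows of MED30, MED15, Taf4, TfIIA-S and TfIIA-L hold neither motif.

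Among Mediator genes the strongest peak lay at MED30, which encodes a subunit found in metazoans and not in budding yeast. It had signals of 256.4 in replicate 1 and 112.2 in replicate 2, rank 92 in each list, and a signal of 366.3 and rank 88 in the pooled list. MED15, encoding a tail subunit contacted by activators, had signals of 169.4 and 70.7 in replicates 1 and 2, ranks 220 and 259, and pooled rank 220. MED27 had signals of 154.9 and 78.8, ranks 278 and 199, and pooled rank 261. These 3 peaks were near the top of every list, and their order differed only between MED15 and MED27.

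The next Mediator peaks lay at MED4, of the middle module, with signals of 110.1 and 51.1 and ranks of 585 and 507 in replicates 1 and 2, and pooled rank 563. The head subunit gene MED6 had signals of 91.2 and 31.0 and ranks of 861 and 1253, with pooled rank 962. The tail gene MED16 had signals of 73.1 and 47 and ranks of 1304 and 600, with pooled rank 999. All 3 were within the top 3102 peaks of each replicate, with MED6 placed higher in replicate 1 and MED16 in replicate 2. MED7, of the middle module, had signals of 75.5 and 35.8 and ranks of 1228 and 1000, with pooled rank 1144. MED17, encoding a central head subunit, had signals of 61.4 and 51.3 and ranks of 1766 and 501, with pooled rank 1218. MED31, a small middle subunit, had signals of 31.1 and 27.3 and ranks of 5146 and 1521, with pooled rank 2842. Of the strongest summits of the 9 bound Mediator genes, that of MED31 was the only one outside the top 3102 of a replicate.

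MED17 carried 2 optimal summits, the second on chromosome 3R in the peak from 18188941 to 18189109, 62 bp upstream of the TSS, with signal 91.1 and rank 1557. It ranked 3211 in replicate 1, outside the top 3102, and 1266 in replicate 2. By module, 2 of 7 head genes (28.6%), 3 of 9 middle genes (33.3%) and 2 of 5 tail genes (40%) were bound. Of the 3 genes whose proteins have been placed in either head or tail (MED27, MED28 and MED30), 2 were bound (66.7%). The share of all protein-coding genes was 18.9%. The scaffold gene MED14 was not bound. The numbers per module are small, and the modules were not compared further.

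TAF genes had fewer strong peaks. Taf4, encoding a histone-fold TAF contacted by activators, had signals of 93.2 and 58.3 in replicates 1 and 2, ranks 823 and 387, and pooled rank 538. Taf7, whose protein binds Taf1, had signals of 34.2 and 31.5 and ranks of 4443 and 1218, with pooled rank 2571. Taf5, encoding a WD40-repeat subunit, had signals of 42.0 and 21.7 and ranks of 3262 and 2139, with pooled rank 2790. Taf2, whose protein contacts the initiator element, had signals of 36.3 and 25.1 and ranks of 4085 and 1714, with pooled rank 2931. Taf4 stood apart from the other 3, which lay near the lower limit of the optimal set and outside the top 3102 of replicate 1. With replicate 1 alone 1 of the 15 TAF genes was bound (6.67%), below the 18.7% of all genes, and with replicate 2 alone 5 (33.3%), above the 18.1% of all genes.

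Among the general factors the peaks lay at the genes of TFIIA and TFIIB. TfIIA-S, the small TFIIA subunit gene, had signals of 111.4 and 43.4 in replicates 1 and 2, ranks 574 and 697, and pooled rank 574. TfIIA-L, the gene of the large subunit precursor, had signals of 80.7 and 30.7 and ranks of 1085 and 1276, with pooled rank 1068. TfIIB had signals of 57.5 and 27.1 and ranks of 1970 and 1544, with pooled rank 1676. All 3 were in the top 3102 of each replicate. TfIIA-L had a second optimal summit 6 bp upstream of a TSS, with signal 69.3 and rank 2402, which ranked 2157 in replicate 1 and 9460 in replicate 2. The genes of TFIIE, TFIIF and TFIIS were not bound.

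**Figure D1:**
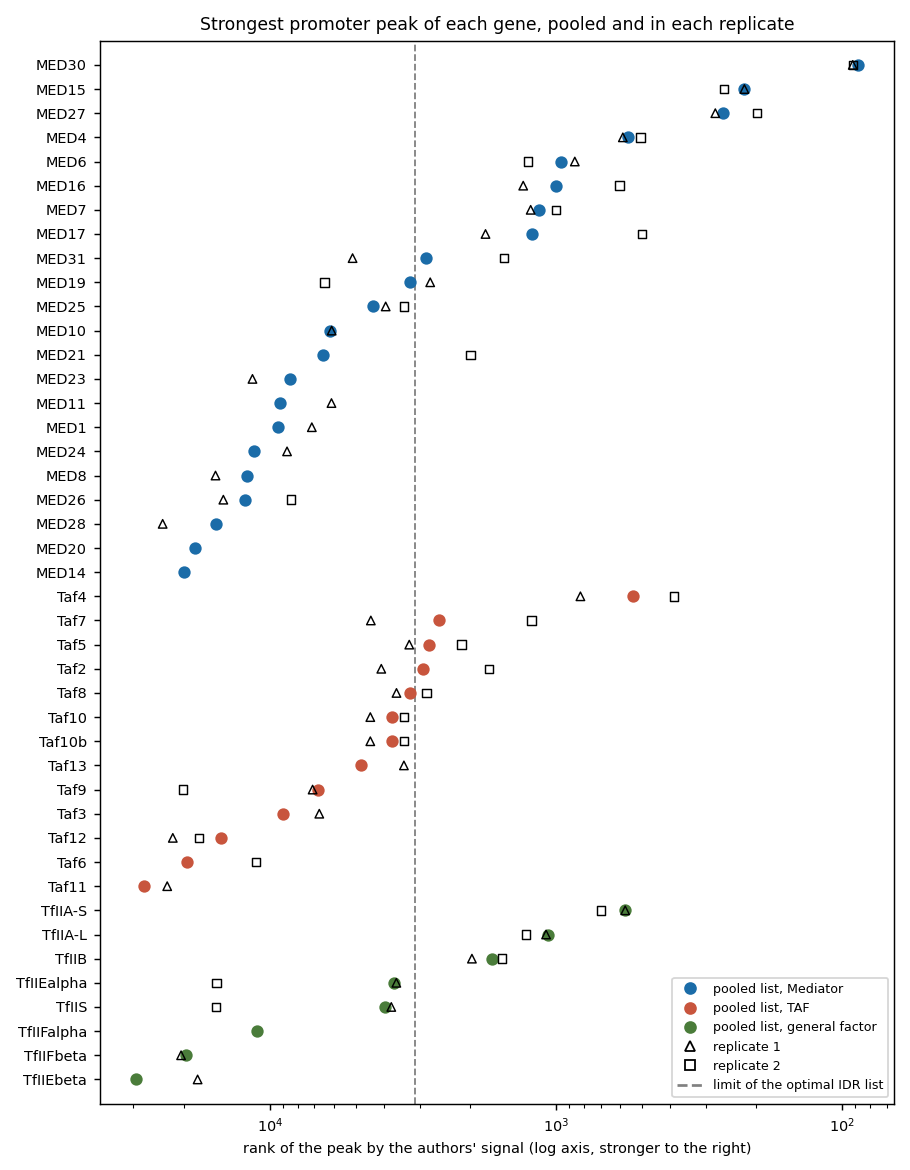
Rank of the strongest promoter summit of the 43 genes with a pooled summit, on a log axis with stronger peaks to the right; filled circles are the pooled list, open triangles replicate 1 and open squares replicate 2 (a summit within 100 bp of the pooled one, not drawn where there was none). The 16 bound genes lie to the right of the dashed line at rank 3102, from MED30 at 88 to Taf2 at 2931, and open symbols become fewer toward the left.

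The members just inside and just outside the limit had similar signals. The weakest bound genes were MED31, with a pooled signal of 62.2, and Taf2, with 60.7, and the strongest unbound ones were Taf8, with 56.7 at rank 3230, and MED19, with 56.6 at rank 3243. MED19, of the middle module, had a summit in the top 3102 of each replicate, but at different places: 112 bp downstream of the TSS in replicate 1 and at −578 bp, upstream of it, in replicate 2. MED21 had a top 3102 summit in replicate 2 (rank 1995) and no summit at its promoter in replicate 1. Taf8 was likewise in the top 3102 of replicate 2 alone, at rank 2841. Counted by each replicate's own top 3102 peaks, 13 of the 49 genes (26.5%) had a promoter summit in replicate 1, against 18.7% of all genes, and 19 (38.8%) in replicate 2, against 18.1%. In both replicates it was 13 genes (26.5%), against 14.1% of all genes.

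Of the bound genes, 12 of 16 had the same summit, within 100 bp, in the top 3102 of each replicate (75%), against 68.6% of all bound genes. Ranks of the 16 peaks ran from 92 to 5146 in replicate 1 (median 1156) and from 92 to 2139 in replicate 2 (median 848.5). Across these 16 peaks Spearman's rho between the replicates' signals was 0.782, and Pearson's r of their log2 values was 0.862. These are descriptions: the peaks share the same libraries and 1 control, per the text deposited with the files, and were selected on both replicates. The median pooled rank of the bound genes was 1034, against 1333 for all bound protein-coding genes.

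**Figure D2:**
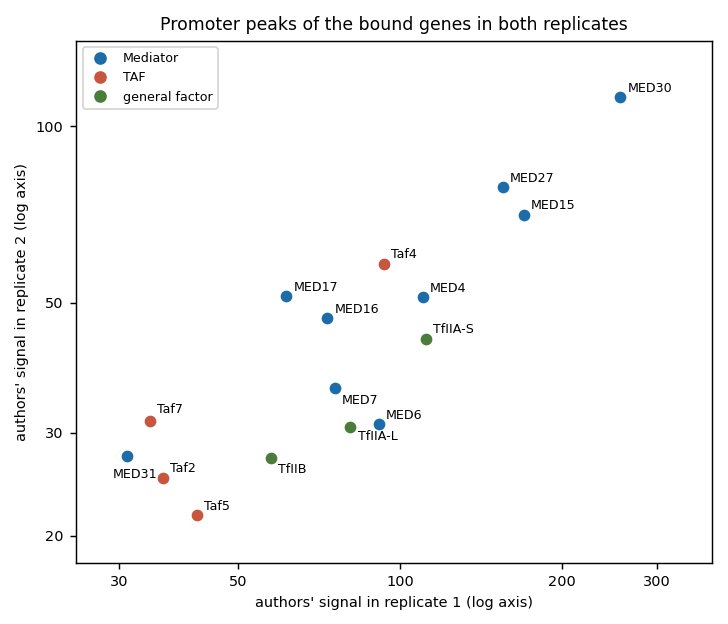
Authors' signal of the 16 bound genes' promoter peaks in replicate 1 (horizontal) and replicate 2 (vertical), both on log axes, coloured by group. MED30 is highest in both, at 256.4 and 112.2, and MED31, Taf2, Taf5 and Taf7 lie at the lower left, with replicate 1 signals from 31.1 to 42.0; the 2 scales are not comparable by size.

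The 27 genes with only a relaxed summit had pooled ranks from 3230 to 29427, with a median of 9194. The strongest 8 ran from Taf8 at 3230 to Taf13 at 4820, and included MED25 (rank 4364), a tail subunit gene, TfIIEalpha (rank 3692) and TfIIS (rank 3956). Taf10 and Taf10b, neighbouring genes that encode the alternative Taf10 proteins of TFIID and the SAGA complex, start 45 bp apart on opposite strands and shared 1 summit, of rank 3757, which ranked 4462 in replicate 1 and 3405 in replicate 2. Taf13 had rank 4820, with no replicate 2 summit within 100 bp. A replicate 1 summit lay within 100 bp for 22 of the 27 genes, a replicate 2 summit for 12, and both for 10. For 3 of them, MED20, MED14 and TfIIFalpha, neither replicate had one.

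The remaining relaxed summits were weak. Taf9, a histone-fold subunit of TFIID and SAGA, had rank 6815, and MED10 had 6174 and MED21 6530. MED23 (8542), Taf3 (9011), MED11 (9194) and MED1 (9410) followed, then TfIIFalpha (11142), MED24 (11404), MED8 (11991), MED26 (12197), Taf12 (14881) and MED28 (15457). MED20 (18217), Taf6 (19533), TfIIFbeta (19722), MED14 (20043), Taf11 (27554) and TfIIEbeta (29427) were the weakest. The authors labelled the relaxed list as peaks and background, and summits found there alone were not counted as binding. No pooled summit lay within 1000 bp of a TSS of MED18, MED22, MED9, Taf1, the largest TFIID subunit gene, Taf12L, a testis paralog of Taf12, or TfIIA-S-2, a paralog of TfIIA-S. The nearest optimal summit to Taf1 was 112800 bp away, to Taf12L 109783 bp and to TfIIA-S-2 55562 bp, whereas it was 3952 bp from MED18, 5216 bp from MED9 and 7188 bp from MED22. These compare with a median of 14380 bp for all unbound protein-coding genes and 6727 bp for the unbound genes described here.

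The bound peaks were close to starts and upstream of them. All 16 summits lay upstream of the nearest TSS of the gene, at a median of 119 bp and from 39 to 548 bp, whereas 84.4% of all bound protein-coding genes had an upstream summit and the median distance was 156 bp. Within 200 bp of the TSS were 12 of 16 summits (75%), against 60.5% of all bound genes. For Taf4, Taf7 and TfIIA-L, which have several annotated starts, the summit fell in an intron of a longer transcript, and for MED6 in the 5′ UTR of one. The other 12 lay outside the gene. Peak widths ran from 102 to 410 bp.

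The starts of other genes lay beside most of these summits. For 13 of 16 bound genes (81.2%) the summit was also within 1000 bp of a TSS of another protein-coding gene, against 65.2% of all bound genes. In 9 of the 16 the other gene's TSS was nearer to the strongest summit. Thus 7 of 16 (43.8%) were the gene with the TSS nearest that summit, against 67.4% of all bound genes. The nearest-TSS count of 9 of 49 genes given above allowed any optimal summit, and so includes MED17 and TfIIA-L through their second summits. At 12 genes the neighbour stood head to head by the closest pair of starts, and so was transcribed away from the shared stretch. The gaps between the 2 starts ran from 19 to 813 bp (median 276 bp). In 11 of these 12 pairs the summit lay between the starts, and at MED6 it lay 20 bp inside Naa80, which encodes an actin acetyltransferase. MED31 also shares its TSS with slx1, an endonuclease subunit gene on the same strand. The peak at a pair cannot be given to 1 of its genes.

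MED30 faced Rev1, a DNA polymerase gene of translesion synthesis, with starts 274 bp apart and the summit 193 bp from MED30 and 81 bp from Rev1. TfIIA-L, from the downstream one of its 2 starts, faced pll, the kinase gene pelle of the Toll pathway, 248 bp away. The strongest summit lay 205 bp from that TfIIA-L start and 43 bp from pll. The longer TfIIA-L transcript, from the other start, spans the whole pll gene. Both stretches are printed from the start of the neighbour to that of the Mediator or TFIIA gene, on the strand of the latter in dm6 coordinates, because they are the DNA that each pair shares. Capitals mark the 21 bases centred on the strongest summit, and E-boxes are not marked. The Rev1 to MED30 stretch holds CATGTG and CAGCTG, and the pll to TfIIA-L stretch holds CAAATG, all outside the windows printed above.
Rev1 to MED30 (chr3L:654089-654363, minus strand): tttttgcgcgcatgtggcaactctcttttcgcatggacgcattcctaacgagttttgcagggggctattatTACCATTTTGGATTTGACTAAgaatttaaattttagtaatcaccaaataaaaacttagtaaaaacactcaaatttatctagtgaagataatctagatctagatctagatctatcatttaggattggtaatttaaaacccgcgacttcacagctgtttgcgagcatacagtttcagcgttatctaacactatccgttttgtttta
pll to TfIIA-L (chr3R:27253182-27253430, plus strand): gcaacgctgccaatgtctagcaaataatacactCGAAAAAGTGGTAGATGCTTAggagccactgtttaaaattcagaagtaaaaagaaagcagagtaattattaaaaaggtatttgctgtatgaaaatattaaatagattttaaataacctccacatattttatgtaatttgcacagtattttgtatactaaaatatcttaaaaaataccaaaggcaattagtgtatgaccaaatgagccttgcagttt
In both the strongest summit lay nearer to the start of the neighbour, at the left of the line. The weaker second summit of TfIIA-L, 6 bp from the TfIIA-L start, lies at the right end of its line and is not marked.

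Taf2 faced CalpB, a calpain protease gene, 79 bp away, with the summit 2 bp from the CalpB start and 77 bp from that of Taf2. MED7 faced Cap-H2, a condensin II subunit gene, 278 bp away, and there the summit was nearer to the Mediator gene (45 against 233 bp). TfIIB faced Bug22, a gene of cilia, 420 bp away, with the summit 348 bp from TfIIB and 72 bp from Bug22. MED15 and CG4297 had the widest gap, 813 bp, with the summit 548 bp from MED15 and 265 bp from CG4297. MED27 and elm started 278 bp apart, and the summit was 142 and 136 bp from them. MED16 faced CG11170, MED17 CG12321 and MED31 CG9775. Taf5 faced Pex6, an ATPase gene of peroxisome biogenesis, 301 bp away, with the summit 120 bp from Taf5 and 181 bp from Pex6. Taf7 and EMC1, a gene of the endoplasmic reticulum membrane complex, lie on opposite strands. By their closest starts, 30 bp apart, the transcripts overlap, so Taf7 was not among the 12 head-to-head genes. The Taf7 start nearest the summit, however, is another one, with the EMC1 start 275 bp upstream of it. The summit lay between these 2 starts, 118 bp from Taf7 and 157 bp from EMC1. MED4, Taf4 and TfIIA-S had no head-to-head neighbour at the peak.

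**Figure D3:**
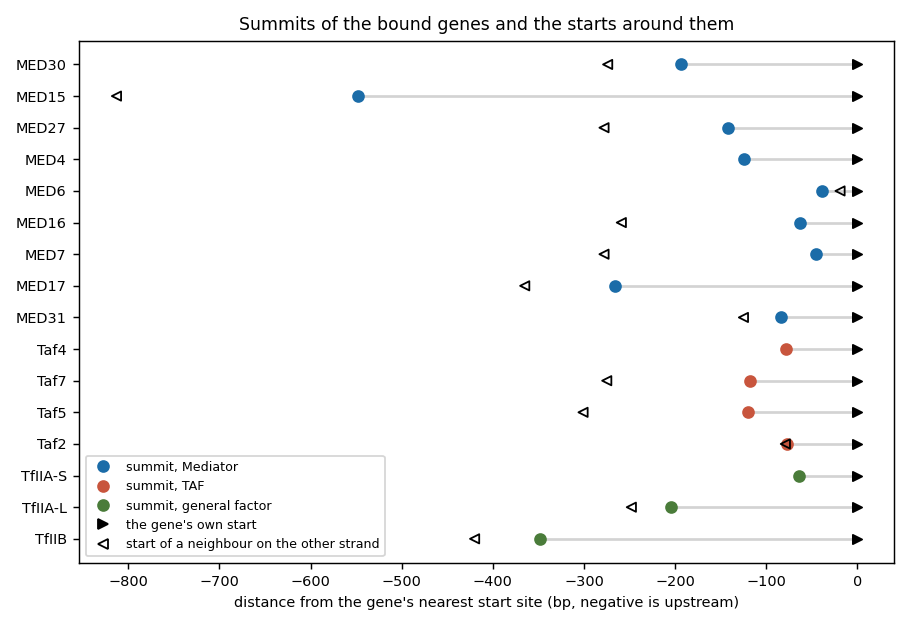
Summit of each of the 16 bound genes (filled circle, coloured by group) by its distance in bp from the gene's nearest start (black arrowhead at 0, negative is upstream), with the start of a neighbour on the other strand within 1000 bp of the summit (open arrowhead). All summits lie upstream, from 39 to 548 bp, and all but that of MED6 fall between the 2 starts where both are drawn.

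Because promoters with a divergent neighbour were bound more often in the whole genome, the count was also taken by gene arrangement, a division chosen after the data were seen. A divergent neighbour, with its TSS within 1000 bp of one of the gene's own on the other side of the shared stretch, was present for 36 of 49 genes (73.5%), against 36.2% of all protein-coding genes. Among genes with such a neighbour 14 of 36 were bound (38.9%), against 34.1% of all protein-coding genes so arranged. Among genes without one 2 of 13 were bound (15.4%), MED4 and TfIIA-S, against 10.2% of all. The 14 include Taf4 and Taf7, which were not among the 12 head-to-head genes at a peak. No other gene's TSS lay within 1000 bp of the Taf4 summit. Without the division by arrangement the shares were 32.7% and 18.9%. Whether gene arrangement underlies that difference was not tested, and the 13 genes without a divergent neighbour are few. Divergent neighbours were present for 19 of 25 Mediator genes, 12 of 15 TAF genes and 5 of 9 general factor genes, of which 8, 4 and 2 were bound.

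**Figure D4:**
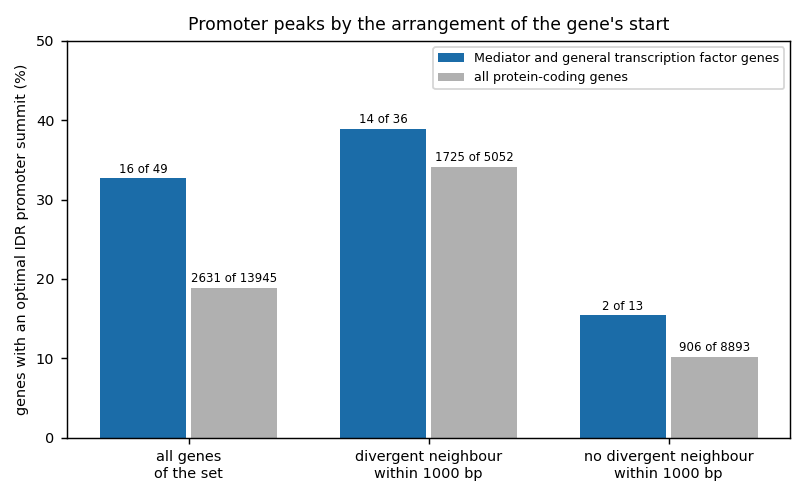
Percent of genes with an optimal IDR summit within 1000 bp of a TSS (vertical axis, from 0) among the Mediator and general transcription factor genes (blue) and all protein-coding genes (grey), for the whole set and by the presence of a divergent neighbour; numbers above the bars are bound genes of all genes. The bars stand at 32.7 against 18.9% for the whole set, 38.9 against 34.1% with and 15.4 against 10.2% without a divergent neighbour.

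Motifs were counted within 50 bases on either side of the strongest summit of each of the 16 bound genes, on both strands. They were set beside all 2014 optimal summits within 1000 bp of a protein-coding TSS. The second optimal summits of MED17 and TfIIA-L are among the 2014 but not among the 16. CANNTG stood at 3 of 16 (18.8%), those of MED27, MED4 and Taf7 printed above, against 37.8% of all. Within 100 bases on either side the shares were nearer to each other, 9 of 16 (56.2%) against 63.8%. The E-boxes CAGCTG and CATATG, which CANNTG includes, stood at none, against 5.91% and 3.33%. TATCGATA, which DREF binds in flies, stood at none of the 16, against 4.02%. At MED17, however, a TATCGATA that starts 27 bp before the TSS lies within 50 bases of the second summit, 62 bp upstream. CGATA, which TATCGATA includes, stood at 1 of the 16, the MED27 summit, against 23.6%. GGTCACAC stood at none, against 1.44%, TATAAA, the TATA box, at 2 (against 16.1%), and GAGAG, bound by GAGA factor, at 1 (against 9.33%). Mean GC content was 35.9% (SD 8.07, n = 16 windows), against 37.1% (SD 9.12) at all promoter summits. With 16 windows, a difference of 1 window is 6.25 percentage points.

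The promoters of all 49 genes, from 250 bases before the 5′-most TSS to 50 after, were searched for the same motifs. GGTCACAC, the core of Motif 1, which the Drosophila factor M1BP binds at broadly expressed genes, stood in 12 of 49 (24.5%), against 7.7% of all protein-coding promoters of that length. In 11 of the 12 the match began within 20 bp of the TSS, against 47.7% of all promoters with a match. TATCGATA stood in 8 (16.3%), against 9.36%, and GAGAG in 8 (16.3%), against 29.7%. CANNTG stood in 36 (73.5%), against 77.2%, CAGCTG in 7 (14.3%), against 17.7%, and CATATG in 2 (4.08%), against 7.82%. CGATA stood in 27 (55.1%), against 47.4%, and TATAAA in 23 (46.9%), against 45.8%. Of the 12 genes with GGTCACAC 3 were bound (25%), against 27.6% of all genes with it, and of the 8 with TATCGATA 2 were bound, MED7 and MED17, against 29.2%. These are matches of letters and not measured sites.

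Stretches of 36 bases around GGTCACAC are printed for 2 bound genes, MED15 and Taf4, and for 2 genes with no optimal summit, MED11 and Taf1, to show that the match sits at the start in each. They are on the strand of the gene in dm6 coordinates, with the match in capitals.
MED15 (chr2L:473005-473040, plus strand): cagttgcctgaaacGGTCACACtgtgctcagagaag
Taf4 (chr3L:16113209-16113244, plus strand): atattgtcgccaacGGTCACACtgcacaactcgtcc
MED11 (chr3L:18745833-18745868, plus strand): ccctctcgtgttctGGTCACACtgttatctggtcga
Taf1 (chr3R:6646890-6646925, plus strand): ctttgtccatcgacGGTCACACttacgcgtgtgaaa
The match began 6 bp after the TSS of MED15, 11 bp after the 5′-most TSS of Taf4, 9 bp before the TSS of MED11 and 15 bp after that of Taf1. The bound summits lay elsewhere, 548 bp upstream of the MED15 TSS and 78 bp upstream of another TSS of Taf4.

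Other genes of the transcription machinery, in 5 lists of 44 genes, were bound at 18 promoters (40.9%), against the same 18.9% of all genes. A promoter summit in the top 3102 of both replicates was present for 12 of the 44 (27.3%), against 14.1% of all genes. For 16 of the 18 bound genes (88.9%) the summit was also within 1000 bp of another gene's TSS, against 65.2% of all bound genes. The TSS nearest the summit was their own for 8 of the 18 (44.4%), against 67.4%. Among RNA polymerase II subunits 5 of 12 were bound, led by Polr2H (rank 117), Polr2F (rank 346) and Polr2B, the second largest subunit (rank 890). Of TFIIH 5 of 10 were bound. The strongest, at Ssl1, had rank 5 and was shared with Chro, the gene of the chromatin protein Chromator, and Tfb5 (rank 1654) and Tfb1 (rank 2345) followed. Pausing and elongation factors had 7 of 10, with Nelf-E (rank 302, beside RpL14), Nelf-A (rank 1287) and Spt6 (rank 2239). Of Mediator subunits under other names 1 of 5 was bound, ix, the gene intersex (rank 2037), with its summit 910 bp downstream of the TSS. That summit lay nearer to a TSS of CG12384. The kinase module genes skd (rank 3122), Cdk8 (rank 7032), kto (rank 24520) and CycC (rank 29367) were not bound. None of 7 genes of the TBP family and testis TAFs was bound: Trf2 had rank 6227, Tbp 6887, mia 11336, nht 14216 and Trf 18217, the last at the summit shared with MED20, and can and sa had no pooled summit.

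For comparison with genes of other complexes, 46 of 88 cytosolic ribosomal protein genes were bound (52.3%) and 8 of 48 proteasome subunit genes (16.7%). The share of all protein-coding genes was 18.9%. Both sets were chosen by symbol alone, so they may include paralogs of narrow expression, which was not examined. The 32.7% of Mediator and general factor genes lay between them. The summits of bound ribosomal protein genes lay nearer to the TSS, at a median of 56 bp against 119 bp, and 67.4% of them were shared with another gene against 81.2%. These differences were not tested.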

How the data were processed

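Peaks from 2 biological replicates were analysed as deposited. The authors' signal value per peak was taken from the deposited dm6 lists: 30000 relaxed peaks per replicate, 30000 for both pooled, and 3102 optimal IDR peaks, which equal the strongest 3102 pooled peaks. Per the text deposited with the files, each list was derived from alignments and 1 shared control. Which aligner and peak caller ran is not given in the sources used here. Read depth is unknown. No interval from depth was therefore computed. Chromatin was sonicated to 200 to 800 bp, per the labels. The dm3 lists were not used.

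Genes and starts of protein-coding transcripts came from Ensembl release 115 (BDGP6.54) and sequence from the RefSeq Release 6 genome, whose arms carry dm6 coordinates. A summit is column 2 plus column 10, printed 1-based. The strongest summit within 1000 bp of a TSS was taken from the optimal list, or else from the pooled relaxed list, and replicate ranks from the strongest summit within 100 bp of it. Motifs were searched by exact match on both strands. Computations ran in Python 3.11.15 (matplotlib 3.10.9, numpy 2.4.6, scipy 1.17.1) and were tested on simulated data.

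All bound members are named, the others by pooled rank, and up to 3 bound genes of each other list. Members and lists were chosen with earlier results of these data known, and ix was added to its list later. Taf3, Taf9 and Taf12L were members and so left out of the other lists. Module assignments of Mediator come from general knowledge. Alternatives took other TSS distances, each replicate alone, the strongest 1551 peaks, other assignments of peaks to genes, other replicate distances and other motif windows.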

Additional observations from a re-analysis of the deposited data

How the results depend on the processing

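The count of bound genes stayed within 1.5 times 16 under TSS distances of 500 and 2000 bp, the strongest 1551 peaks, interval overlap, the 5′-most TSS, and each replicate alone (13 to 19). The shares were 30.6% at 500 bp (against 16.5% of all genes), 38.8% at 2000 bp (against 23%) and 22.4% for the strongest 1551 peaks (against 10.6%). They were 32.7% by interval overlap (against 19.6%) and 28.6% by the 5′-most TSS (against 17.3%). With replicate 1 alone the share was 26.5% (against 18.7%), and with replicate 2 alone 38.8% (against 18.1%). The count was 9 of 49 when each summit went only to the gene with the nearest TSS (18.4%, against 13.2% of all genes), and for Mediator 4 of 25 (16%). For TAF genes it was 1 among the strongest 1551 peaks (6.67%, against 10.6% of all genes). With replicate 1 alone it was 1 (6.67%, against 18.7%), and with replicate 2 alone 5 (33.3%, against 18.1%). With one replicate left out Mediator had 9 to 11 and the general factors 3 in each case. The median rank, summit distance, shared summits and agreement of the replicates did not move by more than 1.5 times under the alternatives run. Motif counts followed the width of the window: with 25 bp either side CANNTG stood at 1 of 16 summits (6.25%, against 20.1% of all promoter summits), CGATA at 0 (against 13.1%), TATAAA at 1 (against 7.85%) and GAGAG at 0 (against 4.47%). With 100 bp CANNTG stood at 9 (56.2%, against 63.8%), CGATA at 4 (25%, against 38.4%), TATAAA at 3 (18.8%, against 30.1%) and GAGAG at 3 (18.8%, against 21.4%). The gap for CANNTG was thus smaller in the widest window. For the counts of genes that moved, the cause was not tested. No paired analysis was possible because there was 1 group. Depth is unknown, so a gene without a peak may have been under the limit of detection.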
